A study of Mus musculus with 12 samples.

Results

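Transcripts of 8 genes of cytokine signalling were followed in lung CD11c+ cells of infected mice: Socs1, Socs2, Socs3 and Cish of the suppressor of cytokine signalling (SOCS) family, and Stat3, Stat4, Stat5a and Stat6 of the signal transducer and activator of transcription (STAT) family. The genes were taken by name, as the probe sets whose only gene symbol is 1 of the 8, which gave 20 of 45101 probe sets and 8 of 18193 genes. The samples were IFNAR-/- mice at day 7, wildtype mice at day 7, IFNAR-/- mice at day 14 and wildtype mice at day 14, with 3 mice and 3 Affymetrix arrays in each of the 4 groups. IFNAR-/- mice lack the receptor for type I interferons, and all 12 mice, wildtype mice included, carried Pneumocystis, a lung fungus given into the trachea. CD11c+ cells, which in lung are mainly alveolar macrophages and dendritic cells, were taken from digested lung with magnetic beads. The labels give a purity above 90% with under 5% lymphocytes. The mice's strain, age and sex, and the kind of Ifnar1 allele, are not given in the sources used here. Values are log2 ratios of a transcript to its own median over the 12 arrays, which compares 1 gene across arrays and never 1 gene with another. Each difference was taken as IFNAR-/- minus wildtype, or as day 14 minus day 7, with the standard error (SE) of a limma fit, and a gene passed where its p, adjusted by Benjamini-Hochberg over all genes, was under 0.05.

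A cytokine that binds its receptor switches on JAK kinases, which phosphorylate STAT proteins, and paired STAT proteins enter the nucleus and bind DNA. SOCS proteins are made in answer to the same STAT proteins and close the loop: they block the kinases or the receptor and hand their targets to a ubiquitin ligase through a part named the SOCS box. In macrophages and dendritic cells, STAT6 carries the signals of IL-4 and IL-13, STAT3 those of IL-10 and IL-6, STAT5A that of GM-CSF, and STAT4 those of IL-12 and, in some settings, of type I interferon.

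The RefSeq promoter table of assembly GRCm38.p6, with 300 bases for each start site (250 before and 50 after it), held 9 windows for 7 of the 8 genes, and none was matched for Socs2. They were searched on both strands for 3 motifs: the paired STAT site TTCNNNGAA, the wider form that STAT6 favours (TTC and GAA with 4 bases of any kind between them), and the interferon response element core (GAAA and GAAA with 2 bases of any kind between them). The STAT motifs read the same on both strands, and no match of 1 motif overlapped a match of another in these windows. The 4 windows with a match are shown because they belong to the 4 genes whose transcripts moved most between groups, with the matches in capitals.
Cish, chr9:107296409-107296708, plus strand: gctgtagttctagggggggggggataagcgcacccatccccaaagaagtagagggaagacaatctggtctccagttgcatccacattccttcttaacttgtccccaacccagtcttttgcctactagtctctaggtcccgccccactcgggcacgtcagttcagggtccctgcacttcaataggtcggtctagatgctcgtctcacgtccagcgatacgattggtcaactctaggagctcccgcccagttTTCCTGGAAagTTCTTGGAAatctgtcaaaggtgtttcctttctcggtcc
Socs3, chr11:117969317-117969616, minus strand: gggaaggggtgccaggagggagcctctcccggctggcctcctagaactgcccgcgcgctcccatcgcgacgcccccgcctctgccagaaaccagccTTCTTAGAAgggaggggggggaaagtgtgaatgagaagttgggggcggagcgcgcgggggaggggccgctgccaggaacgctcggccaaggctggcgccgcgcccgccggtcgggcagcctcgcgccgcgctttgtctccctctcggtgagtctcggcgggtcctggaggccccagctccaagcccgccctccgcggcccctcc
Socs1, chr16:10785487-10785786, minus strand: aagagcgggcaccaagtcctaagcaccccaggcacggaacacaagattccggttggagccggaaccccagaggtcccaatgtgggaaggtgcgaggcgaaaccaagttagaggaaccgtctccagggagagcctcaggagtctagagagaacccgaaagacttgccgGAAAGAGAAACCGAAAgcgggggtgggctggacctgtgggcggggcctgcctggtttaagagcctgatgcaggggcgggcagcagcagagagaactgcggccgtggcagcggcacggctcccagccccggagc
Stat4, chr1:52007990-52008289, plus strand: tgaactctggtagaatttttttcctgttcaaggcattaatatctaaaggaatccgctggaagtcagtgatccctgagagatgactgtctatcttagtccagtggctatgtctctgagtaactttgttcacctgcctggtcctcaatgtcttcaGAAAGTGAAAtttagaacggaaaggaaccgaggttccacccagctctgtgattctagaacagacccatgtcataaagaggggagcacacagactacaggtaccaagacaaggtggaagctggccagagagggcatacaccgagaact
Cish held 2 paired STAT sites, at bases 1 to 9 and 12 to 20 counted from the start site. Socs3 held 1, at bases -154 to -146. Socs1 held 2 interferon response cores that overlap each other, at bases -83 to -74 and -77 to -68. The window shown for Stat4 held 1 such core at bases -97 to -88, and the other Stat4 window held none. Of 32851 windows in the table, 8.3% held TTCNNNGAA, 6.95% held the wider STAT6 form and 3.44% held the interferon core, and 0.457% held 2 or more paired STAT sites. A match describes these letters only. On chromosome 11, Stat5a lies between Stat5b and Stat3.

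The label check rested on 2 probe sets of Ifnar1. On 1449026_at all IFNAR-/- values were lower than all wildtype values within each day, and on 1442222_at the genotypes overlapped on both days. Which part of Ifnar1 each probe set reads against the altered part is not known here. The median log2 ratio of 6 genes that define CD11c+ cells lay between -0.26 and -0.16 in wildtype day 14 arrays. In all other arrays it was higher, between -0.14 and 0.17. Of the 6 genes, 1 passed by limma as higher in IFNAR-/- cells at day 14, and 1 as lower at day 14 in wildtype cells. Ratios to a median cannot check the cell type itself. Mouse 3 of the IFNAR-/- day 7 group and mouse 2 of the IFNAR-/- day 14 group stood apart from the other arrays, and fits without both are given where they bear on a call. IFNAR-/- day 7 mouse 3 was high in lung epithelial, endothelial, fibroblast and neutrophil markers, with median log2 ratios of 2.02, 2.44, 1.91 and 1.56. Wildtype day 7 mouse 1, which was kept, was also high in the epithelial, endothelial and fibroblast markers, at 1.37, 1.93 and 0.69. IFNAR-/- day 14 mouse 2 was not high in these markers, at 0.07 (epithelial), -0.40 (endothelial), -0.02 (fibroblast) and 0.14 (neutrophil). Its values had the widest spread of all arrays, with an interquartile range of 0.582. The next widest was 0.371, in wildtype day 14 mouse 1. The 5' over 3' signal of control probe sets, a sign of RNA integrity, lay between 0.06 and 0.16 in IFNAR-/- day 14 arrays, against -0.91 and -0.18 in wildtype day 14 arrays. In day 7 arrays it lay between -0.52 and 0.11 in IFNAR-/- and between 0.08 and 0.18 in wildtype cells. The signal of poly-A control probe sets lay between -1.75 and 0.17 in IFNAR-/- day 14 arrays, against -3.48 and -1.94 in wildtype day 14 arrays. At day 7 it lay between -3.6 and 1.41 in IFNAR-/- and between 0.83 and 2.15 in wildtype cells. The poly-A signal thus did not overlap between genotypes at day 14, nor between days in wildtype cells. Each array is 1 mouse, so the p-values measure the spread between mice.

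**Figure D1:**
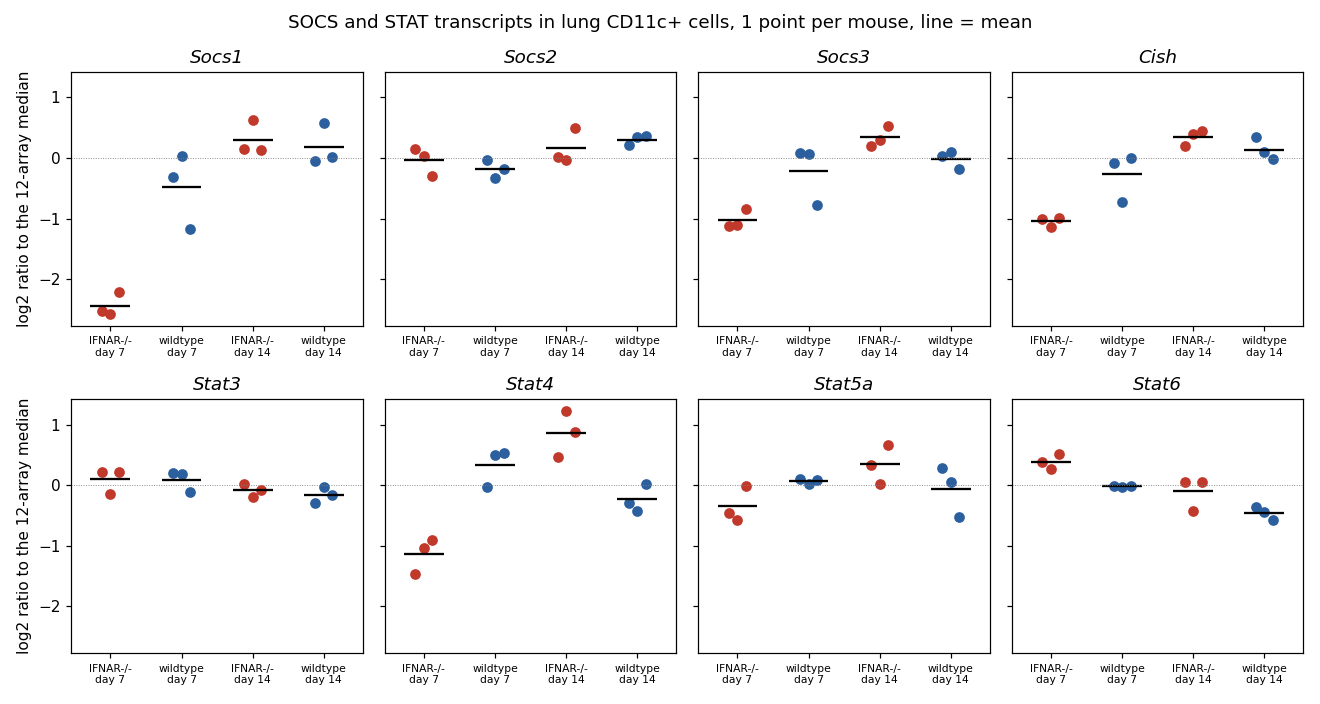
Log2 ratio of each of the 8 genes to its median over the 12 arrays, with 1 point per array, a bar for the group mean and n = 3 mice per group, in the order IFNAR-/- day 7, wildtype day 7, IFNAR-/- day 14 and wildtype day 14. Socs1, Socs3, Cish and Stat4 were lowest in IFNAR-/- day 7 arrays, while Stat3 and Socs2 stayed between -0.33 and 0.50 in every array.

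At day 7 Socs1, Stat4 and Cish passed as lower in cells without the type I interferon receptor than in wildtype cells. No gene of the 8 passed as higher. The count of 3 of 8 genes past the threshold compares with 2.64% of all genes tested, or 1.35% counting lower genes alone. The members' median difference was -0.60 on the log2 scale, against 0.00 over all genes. In 6 of 8 genes the arrays of the genotypes did not overlap, which was so for 24% of all genes.

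Socs1, which blocks JAK kinases below the interferon receptors, had log2 ratios of -2.53, -2.58 and -2.22 in IFNAR-/- mice at day 7. In wildtype mice of that day it had -0.32, 0.03 and -1.17. Every IFNAR-/- array was thus below every wildtype array, and wildtype mouse 3 was the lowest of its group. The difference was -1.96 ± 0.28 (SE, n = 3 each), a level 3.89-fold lower in IFNAR-/- cells, with a limma adjusted p of 0.00452. Socs1 ranked at 85 of 18193 genes by p in this comparison. Leaving out both arrays that stood apart gave -2.07 with a limma adjusted p of 0.0101.

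Stat4, the carrier of IL-12 signals, had log2 ratios of -1.47, -1.04 and -0.91 in IFNAR-/- mice at day 7, against -0.03, 0.50 and 0.53 in wildtype mice. The groups did not overlap, and wildtype mouse 1 lay nearest to the IFNAR-/- arrays. The difference was -1.47 ± 0.23 (SE, n = 3 each), 2.77-fold lower in IFNAR-/- cells, with a limma adjusted p of 0.00667. Without both arrays that stood apart it was -1.59, with a limma adjusted p of 0.00699.

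Cish, a SOCS protein made in answer to STAT5, had log2 ratios of -1.01, -1.14 and -0.99 in IFNAR-/- mice at day 7, against -0.08, -0.72 and 0.00 in wildtype mice. The groups did not overlap, and wildtype mouse 2 was the lowest of its group. The difference was -0.78 ± 0.18 (SE, n = 3 each), 1.72-fold lower in IFNAR-/- cells, with a limma adjusted p of 0.0435. The call of Cish was lost in 17 of 23 other settings, with a limma adjusted p of up to 0.259. Among these, leaving out both arrays that stood apart gave -0.81 with a limma adjusted p of 0.0817.

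Socs3, which binds the receptor chain of IL-6 and limits STAT3, had log2 ratios of -1.12, -1.11 and -0.85 in IFNAR-/- mice at day 7, against 0.08, 0.07 and -0.78 in wildtype mice. The groups did not overlap, but wildtype mouse 3 lay close to the IFNAR-/- arrays. The difference of -0.81 ± 0.21 (SE, n = 3 each) had a limma adjusted p of 0.0697 and did not pass. Of the 12 fits with 1 array left out, it passed only in that without wildtype day 7 mouse 3, at -1.10 with a limma adjusted p of 0.00391, and over the 12 it lay between -1.10 and -0.67 with limma adjusted p-values of up to 0.267. Without both arrays that stood apart the limma adjusted p was 0.0911. All 3 Socs3 probe sets had differences of the same sign, between -0.92 and -0.72.

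The other STAT genes did not pass at day 7. Stat6, the carrier of IL-4 and IL-13 signals, had log2 ratios of 0.39, 0.26 and 0.51 in IFNAR-/- mice, against -0.01, -0.03 and -0.01 in wildtype mice. Every IFNAR-/- array was above every wildtype array, and the difference of 0.40 ± 0.13 (SE, n = 3 each) had a limma adjusted p of 0.161. Stat5a, which carries GM-CSF signals, had -0.46, -0.57 and -0.01 in IFNAR-/- mice, against 0.11, 0.02 and 0.08 in wildtype mice. Those groups did not overlap either, but IFNAR-/- mouse 3 lay close to the wildtype arrays, and the limma adjusted p was 0.492. Stat3, which carries IL-10 and IL-6 signals, differed by 0.00 ± 0.13 (SE), with a 95% interval from -0.29 to 0.30. Socs2, a SOCS protein best known for limiting growth hormone signals, differed by 0.15 ± 0.16 (SE), with an interval from -0.20 to 0.50. In both of these the arrays of the genotypes overlapped.

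Other cell type markers moved with genotype at day 7. Of 11 measured dendritic cell markers, 8 were lower in IFNAR-/- cells and 0 higher, while 1.35% of all genes were lower. Their median log2 ratio lay between -0.64 and -0.38 in IFNAR-/- arrays, against 0.37 and 0.53 in wildtype arrays. Of 11 measured T cell markers, 0 passed in either direction by limma and 6 had an unadjusted p under 0.05, and their median log2 ratio lay between -0.66 and -0.25 in IFNAR-/- arrays, against -0.06 and 0.29 in wildtype arrays. Natural killer cell markers had 1 of 7 lower, and alveolar macrophage markers had 0 of 8 past the limma threshold (2 at an unadjusted p under 0.05) with a median difference of 0.62. In bulk samples, fewer cells of a type and less RNA per cell cannot be told apart. The part of these markers in the day 7 results, those of the pathway genes below included, was not tested.

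**Figure D2:**
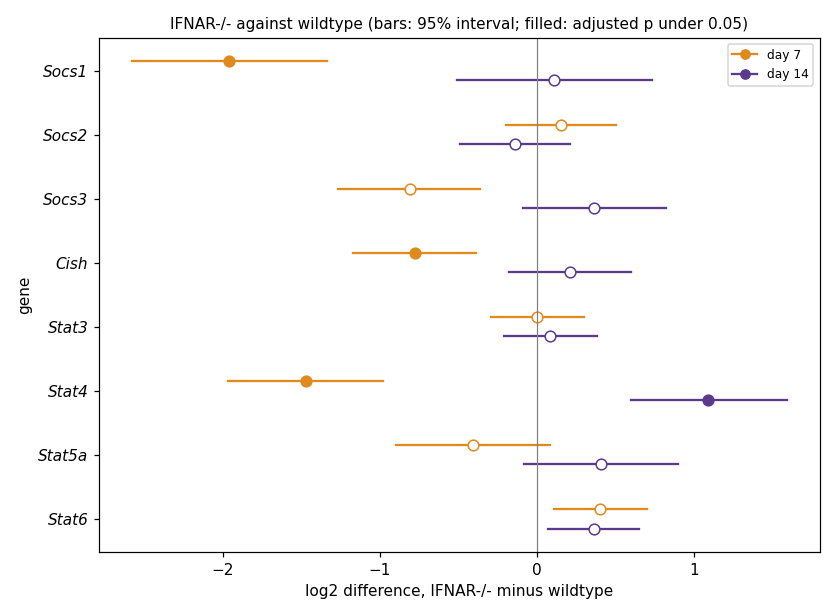
IFNAR-/- minus wildtype difference of each gene on the log2 scale at day 7 and day 14, with 95% intervals from limma (n = 3 mice per group). Socs1, Stat4 and Cish lay below 0 past the threshold at day 7, and Stat4 lay above 0 past it at day 14.

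At day 14 Stat4 was the member that passed, and it was higher in IFNAR-/- cells, opposite in sign to its day 7 difference. The count of 1 of 8 compares with 5.04% of all genes, or 1.75% counting higher genes alone, and the members' median difference was 0.29, against 0.00 over all genes. Stat4 had log2 ratios of 0.47, 1.23 and 0.87 in IFNAR-/- mice at day 14, against -0.29, -0.43 and 0.02 in wildtype mice. All IFNAR-/- arrays were above all wildtype arrays, with IFNAR-/- mouse 1 nearest to them. The difference was 1.09 ± 0.23 (SE, n = 3 each), 2.13-fold higher, with a limma adjusted p of 0.0225. Without both arrays that stood apart it was 0.91 with a limma adjusted p of 0.0483. Adjusted for the 5' over 3' signal it was 1.32 with a limma adjusted p of 0.119, in a fit where 37 of all genes passed, and the call was also lost when IFNAR-/- day 14 mouse 2 or 3 or wildtype day 14 mouse 1 or 2 was left out.

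None of the 4 SOCS genes passed at day 14. Socs1 had log2 ratios of 0.15, 0.62 and 0.13 in IFNAR-/- mice, against -0.05, 0.58 and 0.02 in wildtype mice. Mouse 2 was the highest of each group, the groups overlapped, and the 95% interval of the difference ran from -0.51 to 0.73. Cish had 0.20, 0.40 and 0.44 in IFNAR-/- mice, against 0.34, 0.09 and -0.02 in wildtype mice, with overlapping groups and an interval from -0.18 to 0.60. Socs3 had 0.19, 0.30 and 0.53 in IFNAR-/- mice, against 0.03, 0.09 and -0.19 in wildtype mice. Those groups did not overlap, and the difference of 0.36 ± 0.21 (SE, n = 3 each) had a limma adjusted p of 0.357. Arrays of the genotypes did not overlap in 2 of 8 genes, Socs3 and Stat4, against 23.4% of all genes.

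Stat6 at day 14 had log2 ratios of 0.06, -0.42 and 0.05 in IFNAR-/- mice, against -0.36, -0.44 and -0.58 in wildtype mice. IFNAR-/- mouse 2, an array that stood apart, lay among the wildtype arrays, and the difference of 0.36 ± 0.13 (SE, n = 3 each) had a limma adjusted p of 0.149. Without both arrays that stood apart it was 0.52 with a limma adjusted p of 0.0186, and adjusted for the 5' over 3' signal it was 0.19 with a limma adjusted p of 0.757. Of the 12 fits with 1 array left out, Stat6 passed in 1. Stat5a at day 14 had 0.34, 0.02 and 0.67 in IFNAR-/- mice, against 0.28, 0.05 and -0.53 in wildtype mice, with overlapping groups and a limma adjusted p of 0.33. Stat3 and Socs2 overlapped too, with 95% intervals of the difference from -0.21 to 0.38 and from -0.49 to 0.21. Over both days, Stat6 was higher in IFNAR-/- cells by 0.38 ± 0.09 (SE), with a limma adjusted p of 0.0464, and Socs1 was lower, at -0.92 ± 0.20 (SE; limma adjusted p 0.0263). That made 2 of 8 genes, against 4.19% of all genes, of which 1.7% were higher and 2.49% lower. These mean calls were lost in 17 of 22 other settings for Stat6 and in 9 of 22 for Socs1.

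Among markers at day 14, T cell markers had 4 of 11 higher in IFNAR-/- cells and 0 lower, while 1.75% of all genes were higher. Their median log2 ratio lay between 0.20 and 0.82 in IFNAR-/- arrays, against -0.32 and -0.11 in wildtype arrays. Dendritic cell markers had 3 of 11 higher and 0 lower, with medians between 0.06 and 0.39 in IFNAR-/- arrays, against -0.30 and -0.05 in wildtype arrays. Natural killer cell markers had 0 of 7 past the limma threshold, 4 of 7 at an unadjusted p under 0.05 and a median difference of 0.72. Alveolar macrophage markers had 2 of 8 higher and 0 lower, with a median difference of 0.46. Without both arrays that stood apart, 0 of 11 T cell markers and 2 of 11 dendritic cell markers passed by limma, with median differences of 0.61 and 0.37. STAT4 is a protein of T and natural killer cells as well as of dendritic cells, and the part of these markers in the Stat4 result was not tested.

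The genotype difference of Stat4 and of Socs1 changed between the days. In Stat4 this change, day 14 minus day 7, came to 2.56 ± 0.32 (SE; limma adjusted p 0.00626), with a rank of 16 among 18193 genes by p. In Socs1 it came to 2.07 ± 0.40 (SE; limma adjusted p 0.0261). The count of 2 of 8 genes compares with 2.48% of all genes, or 1.14% counting positive changes alone. Socs3, at 1.17 ± 0.29 (SE), and Cish, at 0.99 ± 0.25 (SE), had limma adjusted p-values of 0.0599 and 0.0609 and did not pass. With both arrays that stood apart left out, the changes were 2.49 for Stat4 and 2.02 for Socs1, with limma adjusted p-values of 0.00721 and 0.0443. Adjusted for the 5' over 3' signal no member passed by limma, and only 3 of the 18193 genes passed in that fit, with Stat4 at 2.88 (adjusted p 0.0784) and Socs1 at 1.75 (adjusted p 0.297). The Socs1 call was lost in 9 of 22 other settings, and the Stat4 call in this 1. The genotype difference changed in the same direction for 6 of 11 dendritic cell, 4 of 11 T cell and 3 of 7 natural killer cell markers, and for 0 of 8 alveolar macrophage markers, whose part was not tested.

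In IFNAR-/- cells 5 of the 8 genes changed between the days, against 12.3% of all genes. Socs1, Stat4, Cish and Socs3 rose, as did 4.08% of all genes, and Stat6 fell at day 14, as did 8.25%. The members' median difference was 1.03, against 0.02 over all genes, and 6 of 8 genes had days that did not overlap, against 34% of all genes. Socs1 was at 0.15, 0.62 and 0.13 at day 14, against -2.53, -2.58 and -2.22 at day 7. The days lay far apart, and the difference of 2.74 ± 0.28 (SE, n = 3 each), or 6.69-fold, had a limma adjusted p of 0.000515. Stat4 rose by 1.99 ± 0.23 (SE, n = 3 each), 3.98-fold, with a limma adjusted p of 0.000876. Cish rose by 1.39 ± 0.18 (SE), 2.62-fold, with a limma adjusted p of 0.00125. Socs3 rose by 1.36 ± 0.21 (SE), 2.57-fold, with a limma adjusted p of 0.00257, and its 3 probe sets each passed, between 1.15 and 1.70. These 4 rises passed in all 23 other settings. Of the markers, 7 of 11 for dendritic cells, 6 of 11 for T cells and 2 of 7 for natural killer cells rose in the same comparison, and 3 of 8 for alveolar macrophages fell, with a median difference of -1.40. Leaving out both arrays that stood apart, 4 dendritic cell, 6 T cell and 0 natural killer cell markers rose and 0 alveolar macrophage markers fell. Their part in the changes of the members was not tested. Stat6 was at 0.06, -0.42 and 0.05 at day 14, against 0.39, 0.26 and 0.51 at day 7. Its days did not overlap, with mouse 2 of day 14 the lowest, and the difference of -0.49 ± 0.13 (SE, n = 3 each) had a limma adjusted p of 0.0368. Stat5a was at 0.34, 0.02 and 0.67 at day 14, against -0.46, -0.57 and -0.01 at day 7, without overlap but with neighbouring values, and did not pass (limma adjusted p 0.0683). The Stat6 call was lost in 11 of 23 other settings, including without both arrays that stood apart.

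In wildtype cells 0 of the 8 genes passed between the days by limma, against 7.98% of all genes. An unadjusted p under 0.05 was found in 5 of the 8. Many other genes reach that cut: Cish, at an unadjusted limma p of 0.0447, ranked 3842 of 18193 genes by p. Other settings called 1 or 2 of them, Stat6 and Socs2. Days did not overlap in 2 of 8 genes, against 31.1% of all genes. Socs2 was at 0.21, 0.34 and 0.36 at day 14, against -0.03, -0.33 and -0.19 at day 7, with no overlap and a difference of 0.49 ± 0.16 (SE, n = 3 each, limma adjusted p 0.0894). Stat6 was at -0.36, -0.44 and -0.58 at day 14, against -0.01, -0.03 and -0.01 at day 7, also with no overlap, and differed by -0.45 ± 0.13 (SE, n = 3 each, limma adjusted p 0.0666). Both genotypes thus had lower Stat6 values at day 14, and the difference of its genotype differences was -0.04 ± 0.19 (SE). Alveolar macrophage markers had the same order of groups as Stat6. Their median log2 ratio lay between 0.92 and 1.09 in IFNAR-/- day 7, -0.13 and 0.75 in wildtype day 7, -0.61 and 0.04 in IFNAR-/- day 14 and -1.34 and -0.59 in wildtype day 14 arrays. In wildtype cells 4 of 8 of them fell, with a median difference of -1.44, as did 3 of 11 dendritic cell and 1 of 7 natural killer cell markers, while 1 of 11 dendritic cell markers rose and 0 of 11 T cell markers passed by limma. The part of these markers was not tested. Stat4 differed by -0.57 ± 0.23 (SE, limma adjusted p 0.161) and Socs1 by 0.67 ± 0.28 (SE, limma adjusted p 0.187), with overlapping days in both. In wildtype arrays the 5' over 3' signal also moved with the day. Adjusted for it, the wildtype difference of Stat6 was -0.27 with a limma adjusted p of 0.567, and that of Socs2 was 0.41 with a limma adjusted p of 0.481. That of Stat5a, at -0.13 before, was 0.33 with a limma adjusted p of 0.623.

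**Figure D3:**
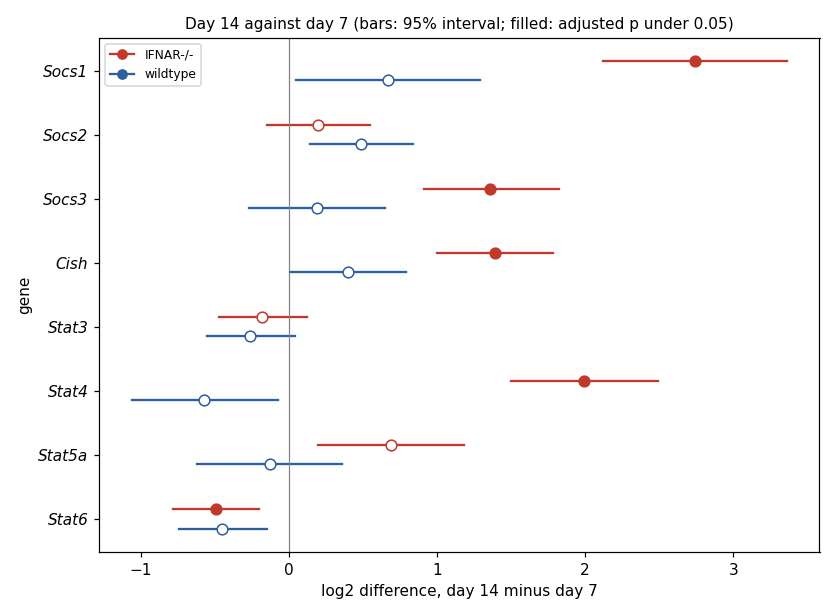
Day 14 minus day 7 difference of each gene on the log2 scale in IFNAR-/- and in wildtype cells, with 95% intervals from limma (n = 3 mice per group). In IFNAR-/- cells Socs1, Stat4, Cish and Socs3 lay between 1.36 and 2.74 and passed, and in wildtype cells no gene passed.

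Set in order of the group means, Socs1, Socs3 and Cish ran alike: IFNAR-/- day 14 was highest, then wildtype day 14, then wildtype day 7, and IFNAR-/- day 7 was lowest. For Socs1 the means were 0.30 ± 0.28, 0.19 ± 0.35, -0.48 ± 0.62 and -2.45 ± 0.19 in that order (SD, n = 3 each). The first 3 of these groups overlapped their neighbours in the order, and IFNAR-/- day 7 stood below the rest. Stat4 had another order, with IFNAR-/- day 14 at 0.86 ± 0.38, wildtype day 7 at 0.33 ± 0.32, wildtype day 14 at -0.23 ± 0.23 and IFNAR-/- day 7 at -1.14 ± 0.29 (SD, n = 3 each). Its neighbours overlapped except at the low end. Stat6 ran nearly opposite to the SOCS genes, with IFNAR-/- day 7 highest at 0.39 ± 0.13 and wildtype day 14 lowest at -0.46 ± 0.11 (SD, n = 3 each). Over the 12 arrays the SD was 1.20 for Socs1 and 0.82 for Stat4, and it was 0.18 for Stat3, the only member not above the median SD of all genes.

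Probe sets of 1 gene did not always go the same way, and averages of such genes hide this. Of the 20 probe sets, 2 passed at day 7 and 1 at day 14 in the genotype comparison, against 1.54% and 4.11% of all probe sets. In time, 8 passed in IFNAR-/- cells, against 8.61% of all probe sets, and 3 in wildtype cells, against 5.75%. Socs1, Cish and Stat4 have 1 probe set each, and as a probe set Cish at day 7 had a limma adjusted p of 0.0639, adjusted over all probe sets.

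Socs2 has 6 probe sets that disagree. On 1418507_s_at wildtype arrays had 1.40, 0.99 and 1.16 at day 14, against -0.06, -1.04 and -0.30 at day 7, without overlap. That difference of 1.65 ± 0.27 (SE, n = 3 each) passed with a limma adjusted p of 0.00632, while the other 5 Socs2 probe sets lay between -0.24 and 0.97 and did not pass. On 1438470_at Socs2 was higher in IFNAR-/- cells by 0.61 ± 0.12 (SE) over both days, with a limma adjusted p of 0.0189. Its arrays had 0.40, 0.73 and 0.47 in IFNAR-/- mice at day 7, against -0.29, -0.05 and -0.07 in wildtype mice. At day 14 they had 0.22, 0.03 and 0.27 in IFNAR-/- mice, against -0.74, -0.17 and -0.22 in wildtype mice, so that the genotypes did not overlap on either day.

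The 2 Stat6 probe sets differed in when they moved. On 1421708_a_at wildtype arrays had -0.73, -0.69 and -1.11 at day 14, against -0.02, 0.03 and -0.04 at day 7, and the difference of -0.83 ± 0.21 (SE, n = 3 each) had a limma adjusted p of 0.0391. On 1426353_at the same difference was -0.06 ± 0.11 (SE), and it was the IFNAR-/- cells that fell, by 0.55 on the log2 scale (limma adjusted p 0.0124). The 2 Stat5a probe sets had day 14 genotype differences of -0.27 and 1.09, neither past the threshold. On 1421469_a_at Stat5a rose in IFNAR-/- cells by 0.90 ± 0.23 (SE, limma adjusted p 0.0321). Of 4 Stat3 probe sets 1 passed in any comparison, 1426587_a_at, which fell by 0.84 on the log2 scale in wildtype cells at day 14 (limma adjusted p 0.0244).

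**Figure D4:**
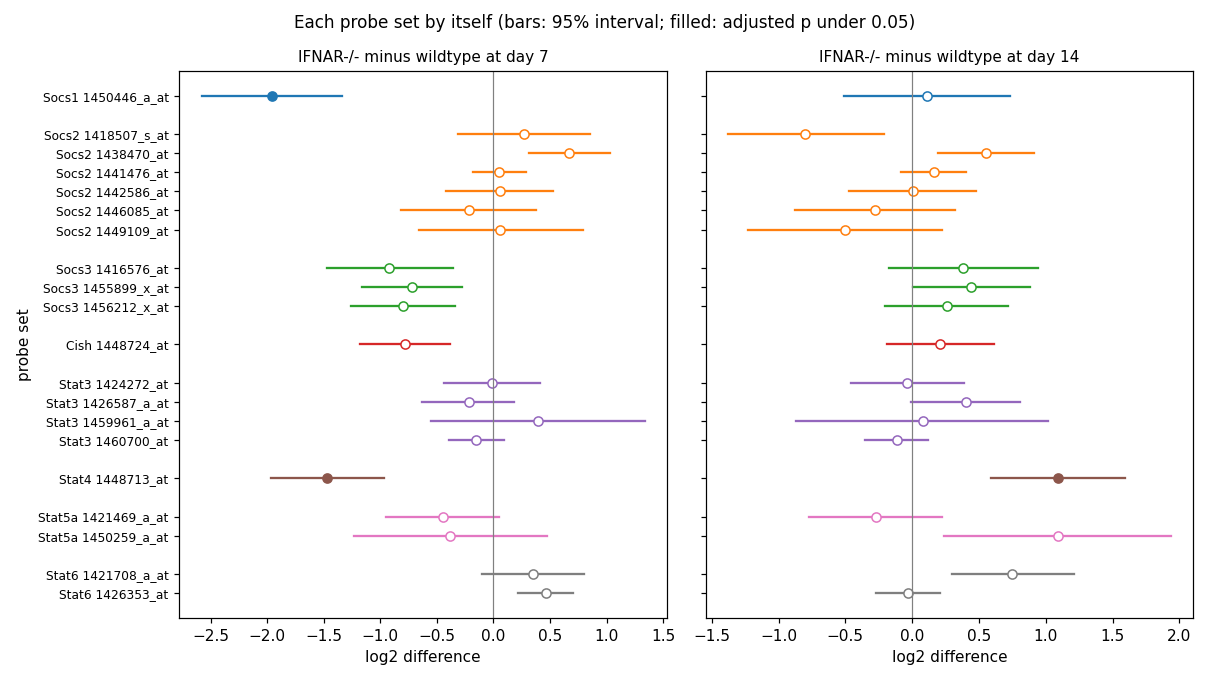
IFNAR-/- minus wildtype difference of each of the 20 probe sets on the log2 scale at day 7 and day 14, 1 point per probe set grouped by gene, with 95% intervals from limma and filled points past the threshold. The 3 Socs3 probe sets lie together, while those of Socs2, Stat3, Stat5a and Stat6 lie on both sides of 0 at day 14.

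The pathway around the members was described with lists of ligands, receptors, kinases, brakes and target genes, read by their counts. Beside these counts, 2.64% of all genes passed between genotypes at day 7 and 5.04% at day 14, in either direction. In time, 12.3% passed in IFNAR-/- cells and 7.98% in wildtype cells. Counts at an unadjusted p under 0.05, of markers as of lists, have no share of all genes beside them, and many genes reach that cut. Stat6 ranked 1272 of 18193 genes between genotypes at day 7 (unadjusted limma p 0.0113) and 2448 at day 14 (0.02). The lists share genes, with Osm, Ifng and Il2ra among them, so their counts are not independent. Of the genotype results given for named pathway genes, 2 at day 14 were lost without both arrays that stood apart. They were Ifng and Il2rb, at 2.16 and 0.65 with limma adjusted p-values of 0.0844 and 0.063. That of Ptpn2 over both days was lost too, and the others still passed. Pathway and marker lists were not refitted with the 5' over 3' signal, with which 37 of all genes passed at day 14. Of 20 measured cytokine ligands, 0 passed at day 7 by limma (4 at an unadjusted p under 0.05). At day 14, 3 were higher in IFNAR-/- than in wildtype cells, Il12a, Osm and Ifng. Il12a, a subunit of the IL-12 that activates STAT4, had log2 ratios of 2.64, 2.53 and 2.69 in IFNAR-/- mice at day 14, against -0.39, 0.66 and 0.28 in wildtype mice. The groups lay far apart, and the difference was 2.44 ± 0.45 (SE, n = 3 each, limma adjusted p 0.0153). Ifng, the interferon that STAT4 induces in T and natural killer cells, had 2.67, 2.28 and 0.95 in IFNAR-/- mice at day 14, against -1.02, 0.02 and -0.05 in wildtype mice. Its difference of 2.32 ± 0.54 (SE, n = 3 each, limma adjusted p 0.033) came without overlap. The genotype difference of Ifng changed by 3.96 ± 0.76 (SE) between the days (limma adjusted p 0.0261). Osm, a relative of IL-6, had 0.23, -1.44 and -0.02 in IFNAR-/- mice at day 14, against -2.06, -2.29 and -1.97 in wildtype mice. The difference was 1.70 ± 0.35 (SE, n = 3 each, limma adjusted p 0.0222). At day 7 the IFNAR-/- mice had Osm at 0.01, 0.21 and -0.37. In wildtype cells Osm differed by -2.51 ± 0.35 (SE), day 14 minus day 7 (limma adjusted p 0.00254).

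Among 29 measured receptors, 1 was higher and 3 were lower in IFNAR-/- than in wildtype cells at day 7. At day 14, 2 were higher and 1 was lower. Il2rb, the receptor chain of IL-2 and IL-15 that feeds STAT5, had log2 ratios of -0.53, -0.57 and -0.51 in IFNAR-/- mice at day 7, against 0.55, 0.50 and 0.29 in wildtype mice (difference -0.98 ± 0.17, SE, n = 3 each, limma adjusted p 0.0116). At day 14 it had 0.62, 0.74 and 0.06 in IFNAR-/- mice, against -0.32, -0.11 and -0.50 in wildtype mice (difference 0.79 ± 0.17, SE, n = 3 each, limma adjusted p 0.025). It thus passed with opposite signs on the days, and the change of 1.76 ± 0.24 (SE) had a limma adjusted p of 0.00698. Il2rb is a chain that T and natural killer cells carry. Crlf2, the receptor of TSLP, was lower in IFNAR-/- cells by 1.28 on the log2 scale at day 7 (limma adjusted p 0.00446).

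Of 4 JAK kinases, Jak2 was lower in IFNAR-/- than in wildtype cells at day 7, and Jak3 was higher at day 14. Jak2, a kinase of the GM-CSF and IL-12 receptors, had log2 ratios of -1.31, -1.49 and -1.14 in IFNAR-/- mice at day 7, against -0.09, -0.01 and -0.53 in wildtype mice. The groups did not overlap, and the difference was -1.10 ± 0.21 (SE, n = 3 each, limma adjusted p 0.0193). It rose at day 14 in both genotypes, by 1.60 ± 0.21 (SE) in IFNAR-/- cells and by 0.94 ± 0.21 (SE) in wildtype cells, with limma adjusted p-values of 0.00134 and 0.0205. Jak3, the kinase of receptors that share the common gamma chain, had 0.24, -0.01 and 0.22 in IFNAR-/- mice at day 14, against -0.68, -0.63 and -0.95 in wildtype mice (difference 0.90 ± 0.15, SE, n = 3 each, limma adjusted p 0.0102). At day 7 the IFNAR-/- mice had Jak3 at -0.19, 0 and 0. In wildtype cells Jak3 differed by -0.78 ± 0.15 (SE), day 14 minus day 7 (limma adjusted p 0.0113).

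Other brakes on the pathway were mostly not past the threshold between genotypes. At an unadjusted limma p under 0.05 there were 5 of 11 at day 7 and 7 of 11 at day 14. Usp18, an interferon-induced protein that blocks the type I interferon receptor, was the 1 of 11 such genes that passed at day 7, as lower in IFNAR-/- cells. It was also the 1 that passed at day 14, again as lower. It had log2 ratios of -1.72, -1.46 and -0.43 in IFNAR-/- mice at day 7, against 1.16, 1.86 and 0.71 in wildtype mice, a difference of -2.44 ± 0.36 (SE, n = 3 each, limma adjusted p 0.00471). At day 14 its difference was -1.62 ± 0.36 (SE, limma adjusted p 0.0274). Ptpn2, another of the 11, passed as lower over both days, at -0.58 ± 0.13 (SE, limma adjusted p 0.0345). Without both arrays that stood apart Ptpn2 was at -0.47 with a limma adjusted p of 0.088. Of the 4 other SOCS genes, Socs6 was lower in IFNAR-/- than in wildtype cells at day 14. It had -0.27, -0.83 and -0.20 in IFNAR-/- mice, against 0.66, 1.54 and 1.63 in wildtype mice, a difference of -1.71 ± 0.24 (SE, n = 3 each, limma adjusted p 0.00587). At day 7 the IFNAR-/- mice had Socs6 at -0.33, -0.41 and -0.28. In wildtype cells Socs6 differed by 1.15 ± 0.24 (SE), day 14 minus day 7 (limma adjusted p 0.0151). Of 2 measured STAT genes that are not members, Stat2 and Stat5b, 0 passed between genotypes by limma on either day, with 1 at an unadjusted p under 0.05 at day 7 (Stat2, at -1.21) and 0 at day 14.

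Target genes of the STAT proteins were counted by list. Of 17 measured STAT6 targets, 7 were lower and 0 higher in IFNAR-/- than in wildtype cells at day 7. Their median difference was -0.25 against 0.00 over all genes, while Stat6 itself was not lower. Over all genes 1.35% were lower, and beside this list 8 of 11 dendritic cell markers were lower. Leaving out both arrays that stood apart, 4 of the 17 were lower. Arg1, the arginase of alternatively activated macrophages, had log2 ratios of -2.0, -2.61 and -3.67 in IFNAR-/- mice at day 7, against -0.58, -0.15 and -0.59 in wildtype mice (difference -2.32 ± 0.34, SE, n = 3 each, limma adjusted p 0.00471). Pdcd1lg2, an inhibitory ligand of T cells, was lower in IFNAR-/- cells at day 7 by 2.53 ± 0.44 (SE, limma adjusted p 0.0127). Ccl24, an eosinophil chemokine, was lower by 1.90 ± 0.33 (SE, limma adjusted p 0.0129). In time, 9 of 17 rose in IFNAR-/- cells, against 4.08% of all genes, and 7 of 17 in wildtype cells, with 0 lower in either. Over all genes 7.98% passed in wildtype cells, in either direction. Alveolar macrophage markers, of which Mrc1 and Chil3 were also listed as STAT6 targets, fell in 3 of 8 and 4 of 8. The part of these markers in the list's counts was not tested. Ccl24 led both, at 5.40 ± 0.33 (SE) in IFNAR-/- and 3.76 ± 0.33 (SE) in wildtype cells, with limma adjusted p-values of 2.47e-05 and 0.000278.

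The STAT3, STAT4 and STAT5 target lists had 0 genes past the threshold at day 7 by limma, of 12, 8 and 10 measured. At an unadjusted p under 0.05 they had 5, 3 and 3. At day 14, 3 of 12 STAT3 targets, 2 of 8 STAT4 targets and 4 of 10 STAT5 targets were higher in IFNAR-/- than in wildtype cells. Another 2 of 8 STAT4 targets were lower. Over all genes 1.75% were higher at day 14, and 5.04% passed in either direction. Pim1, a survival kinase on the STAT3 and STAT5 lists, was higher in IFNAR-/- cells by 1.04 ± 0.20 (SE, limma adjusted p 0.0179). In wildtype cells Pim1 differed by -0.94 ± 0.20 (SE), day 14 minus day 7 (limma adjusted p 0.0167). Il18r1, the IL-18 receptor on the STAT4 list, was higher in IFNAR-/- cells by 1.61 ± 0.31 (SE, limma adjusted p 0.0186). Furin, a protease on the same list, was lower in IFNAR-/- cells by 1.03 on the log2 scale (limma adjusted p 0.0268). In wildtype cells Furin differed by 1.02 ± 0.22 (SE), day 14 minus day 7 (limma adjusted p 0.0191). Lcn2, an iron-binding neutrophil and epithelial protein on the STAT3 list, was higher in IFNAR-/- cells by 3.60 ± 0.78 (SE, limma adjusted p 0.0269). The median log2 ratio of neutrophil markers at day 14 lay between 0.14 and 0.21 in IFNAR-/- arrays, against -0.36 and -0.13 in wildtype arrays, and its part in the Lcn2 result was not tested. Tbx21, the T-bet gene of type 1 T cells, differed between the days in its genotype difference by 1.99 ± 0.41 (SE, limma adjusted p 0.0325), and it too is a gene of T and natural killer cells.

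**Figure D5:**
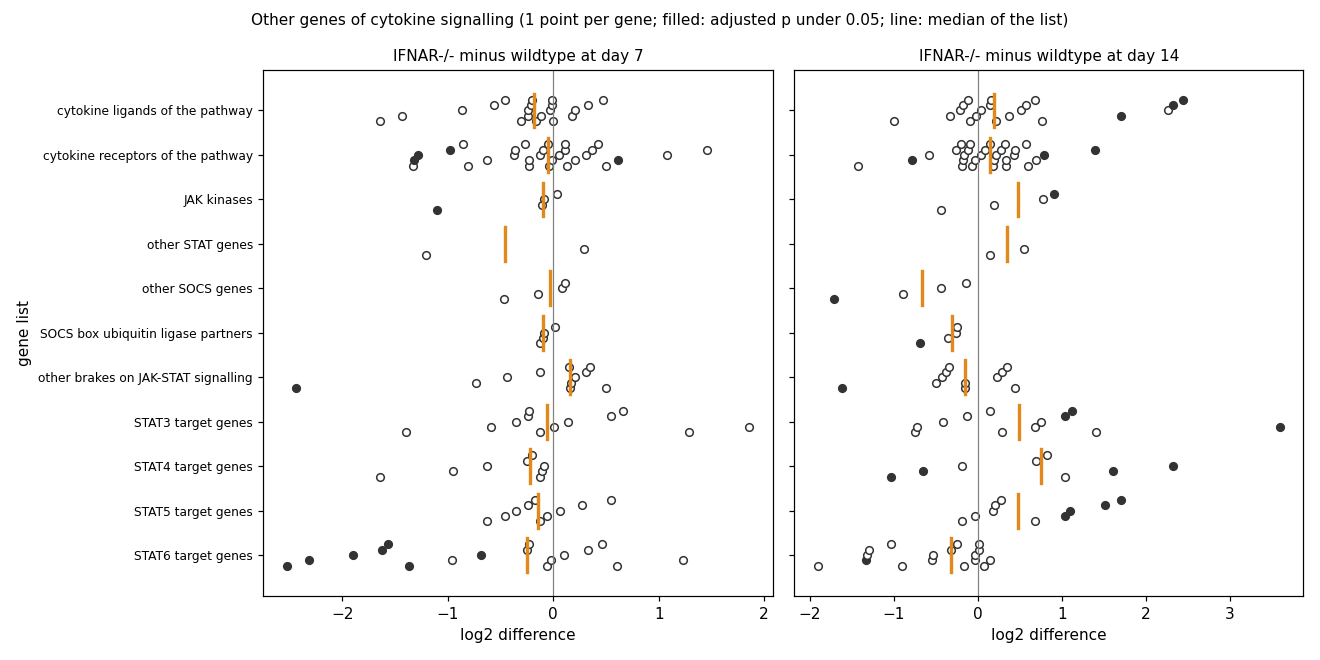
IFNAR-/- minus wildtype difference on the log2 scale at day 7 and day 14 of each measured gene of the pathway lists, 1 point per gene, filled past the limma threshold, with a line at the list's median. STAT6 targets have 7 filled points of 17 at day 7, all below 0, and STAT3, STAT4 and STAT5 targets have 0 there.

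The genes whose log2 ratios were most like those of each member over the 12 arrays were found by Pearson's r, as a description in which all points share 4 groups. Socs1 was most like Cd40, a receptor through which T cells activate dendritic cells and macrophages, at r = 0.97, and Hk3, a hexokinase of myeloid cells, at r = 0.96. Cd40 averaged -2.16 ± 0.22 in IFNAR-/- cells at day 7 and -0.14 ± 0.95 in wildtype cells (SD, n = 3 each). Cish was most like Batf3, a transcription factor of cross-presenting dendritic cells, at r = 0.94, and 4933412O06Rik, at r = 0.93. By ranks (Spearman's rho) these came to 0.78 and 0.92. Batf3 averaged -1.54 ± 0.10 in IFNAR-/- cells at day 7 and -0.39 ± 0.42 in wildtype cells (SD, n = 3 each). Unlike Cish, Batf3 was highest in wildtype day 14 cells, at 0.71 ± 0.30 (SD). Socs3 was most like Gatm, an enzyme of creatine synthesis, and Lat2, a signalling adaptor, each at r = 0.93. Stat4 was most like Syngr2 and 4933401H06Rik, each at r = 0.92, and Stat6 like Brat1 at r = 0.97 and Dst at r = 0.96. For Socs2, Stat3 and Stat5a the nearest genes, Ahcy, Taok2 and Sh2b2 among them, lay between r = 0.90 and r = 0.91.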

How the data were processed

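RNA of lung CD11c+ cells was measured on 12 Affymetrix arrays, 1 per mouse, matched to genotype and day by the labels. Per the submitters' processing notes the values come from RMA, with no version given. The deposited values are linear ratios. For 99.5% of probe sets the median ratio over the 12 arrays was within 0.02 of 1, so each appears divided by its own median. This was read from the values and is not stated. Levels and signal over background are therefore unknown, and the number of arrays limits precision.

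The deposited ratios were turned to log2 and averaged over the probe sets with the same single symbol (34945 of 45101), giving 18193 genes. Probe sets with no symbol (9160) or several (932) were left out of gene means. A limma 3.58.1 model (R 4.3.3) with 1 mean per group (8 residual and 3.21 prior degrees of freedom) gave 6 two-sided comparisons, which share arrays. The threshold was 0.05 after Benjamini-Hochberg adjustment over all genes. The script was tested on simulated data.

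The members, gene lists and tests were chosen with earlier results of these data known. Named were all 8 members, Ifnar1, up to 3 genes past the threshold with the lowest p per pathway list and comparison, of which some are given, and the 2 genes most like each member. Promoter sequences are from RefSeq (GRCm38.p6), and no other coordinates are given. Alternatives were another normalization, probe set choice, prior, array weights, a replicate block, fewer arrays, covariates and a variance filter.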

Additional observations from a re-analysis of the deposited data

Results flagged for a closer look

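The genotype difference of Stat4 changed between the days by 2.56 on the log2 scale by the interaction term of the limma fit, from arrays that were all lower in IFNAR-/- mice at day 7 and all higher at day 14. The change of Socs1 was 2.07 by the same term, with IFNAR-/- arrays all lower at day 7 and overlapping wildtype arrays at day 14.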

How the results depend on the processing

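Recomputing the members in 23 other settings gave 1082 values: 985 kept their side of the threshold, 69 lost a call, 28 gained one, and no called value changed sign. Among the 985 were 45 values, called in neither setting, that changed sign, such as Socs1 at day 14 and Stat3 at day 7. Socs1 and Stat4 at day 7, and the rises of Socs1, Socs3, Cish and Stat4 in IFNAR-/- cells, passed in all 23. The cause of these changes was not tested. Leaving out 1 array in turn gave 2 to 4 members past the threshold at day 7, 0 to 1 at day 14, 0 to 2 for the mean of both days, 4 to 6 in time in IFNAR-/- cells, 0 to 1 in time in wildtype cells and 1 to 3 for the change of the genotype difference. Stat4 at day 14 lost its call without IFNAR-/- day 14 mouse 2 or 3 or wildtype day 14 mouse 1 or 2.

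The counts of members moved otherwise as follows. For the mean of both days the count was 1 with quantile normalization again, the most variable probe set per gene, the replicate block, the 5' over 3' covariate, the poly-A covariate and genes above the median standard deviation, and 0 with a trended and robust prior. In time in wildtype cells it was 1 with quantile normalization and array weights, and 2 with the most variable probe set per gene, with the compared arrays alone and without both arrays that stood apart. For the change of the genotype difference it was 1 with quantile normalization (576 of all genes passed) and the trended prior (302), 5 with array weights (1765) and 0 with the 5' over 3' covariate (3). At day 7 it was 5 with array weights (1882 of all genes) and 2, without Cish, with quantile normalization, the most variable probe set, the trended prior, the replicate block, the compared arrays alone, either covariate, and without both arrays that stood apart. At day 14 it was 3 with array weights (1899 of all genes), 2 without both arrays that stood apart (932) and 0 with the 5' over 3' covariate (37). Leaving out both arrays for the pathway and marker lists was chosen after seeing the data. It gave 6 rather than 3 higher ligands at day 14, 4 rather than 7 lower STAT6 targets at day 7, 0 rather than 4 higher T cell markers at day 14, and 0 rather than 3 lower alveolar macrophage markers in time in IFNAR-/- cells.

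Over all settings the number of genes past the threshold among all genes ranged from 210 to 1882 at day 7 (481 as reported), 37 to 1899 at day 14 (917), 376 to 2221 for the mean (762), 1094 to 4576 in time in IFNAR-/- cells (2244), 154 to 2688 in time in wildtype cells (1451) and 3 to 1765 for the change of the difference (451). With the mouse number as a replicate block, Cish at day 7 had a limma adjusted p of 0.0583 and Stat6 over both days 0.0563. Deviations of same-numbered mice correlated between -0.40 and 0.23. Mice of different numbers were not compared, so this cannot show whether the numbers pair the samples. Stat3 was not above the median standard deviation and has no value in that setting.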
